A study of Arabidopsis thaliana with 6 samples.

Results

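Expression of 5 cold and stress genes was described in unstressed Arabidopsis thaliana seedlings: COR15A (AT2G42540), COR15B (AT2G42530), COR47 (AT1G20440), LTI30 (AT3G50970) and ZAT10 (AT1G27730). They were chosen by locus, each probe set being kept only where the platform annotation gives that locus alone, and all 5 loci had exactly 1 such probe set. They are 5 of the 13286 genes with a probe set of their own in that annotation, on an array of 22746 non-control probe sets. Whole seedlings of 5 days, grown under 16 h of light and 8 h of dark with no treatment, were hybridised to 6 Affymetrix arrays, 2 biological replicates per genotype. The genotypes were TaVAPOE (the wild type overexpressing TaVAP), a line labelled atvap mutant, and the wild type (WT). The labels give no promoter for the transgene, no number of independent lines, no locus for the mutation and no accession, and they do not say whether the replicates came from separate cultures, so the errors below measure the spread between these arrays. By its title the series asks what TaVAP does in stress tolerance, and without any stress applied the arrays show only the resting levels of these genes.

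In Arabidopsis, cold raises the CBF (DREB1) transcription factors, which bind the CRT/DRE element in the promoters of the COR genes and switch them on. The proteins made from these targets are mostly small and hydrophilic and protect membranes and enzymes when cells freeze or dry out. COR genes are also gated by the circadian clock and respond to abscisic acid and drought, and ZAT10 is a rapid stress-response gene induced by cold, salt, light and wounding.

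The 4 arrays that resemble each other were used first: both TaVAPOE arrays, mutant replicate 2 and WT replicate 2, which correlated at Pearson r from 0.935 to 0.979 across probe sets (probe sets are not independent replicates). Mutant replicate 1 reached at most 0.194 with any array and WT replicate 1 at most 0.526. On these 2 discordant arrays bright probe sets as a whole read lower: among the 2275 probe sets whose mean over the 4 concordant arrays lay above the 90th percentile, the median difference was -3.29 log units for mutant replicate 1 minus replicate 2, and -2.12 for WT replicate 1 minus replicate 2. Leaf genes, which should be bright in green seedlings, were in the top 5% of probe sets on the 4 concordant arrays for the 4 members of the list with a probe set named here. On mutant replicate 1 the photosystem I subunit gene PSAE1 and the Rubisco activase gene RCA were still at percentiles 95.2 and 94.4, while the antenna protein genes LHCB4.1 and LHCB4.2 were at 37.1 and 24.4. On WT replicate 1 LHCB4.2 was at 89.2 and the other 3 were above 99. In log units LHCB4.2 read 7.49 and 7.61 in TaVAPOE, above 6.34 on mutant replicate 2 and 6.37 on WT replicate 2. RCA read 8.92 and 9.09 in TaVAPOE, below 9.55 and 9.28 on those arrays. For LHCB4.1 and PSAE1 the TaVAPOE arrays were neither both highest nor both lowest of the concordant arrays. Of 4 listed root genes 1 had a probe set named here, PYK10. It read 3.74 and 3.99 log units in TaVAPOE, 2.87 on mutant replicate 2 and 2.78 on WT replicate 2, so TaVAPOE was highest of these. Choosing the 4 arrays leaves a single array each for the mutant and WT, and the part that array quality plays in any result below was not tested.

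The sources do not give the base of the deposited log values, so differences are in log units as deposited. Each gene was also given its percentile within each array, which does not depend on the base: percentile 95 means that 95% of the 22746 probe sets read at or below it. Probe sets differ in affinity. A percentile, or the word bright, therefore describes how a probe set reads on its array. It cannot be taken as the amount of one gene's transcript beside another's.

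On the 4 concordant arrays all 5 genes were bright without any cold treatment, and in all 5 both TaVAPOE arrays read below mutant replicate 2 and WT replicate 2. The gap was 0.61 to 0.94 log units in size for the 4 COR and LTI genes and 0.13 for ZAT10. Over all probe sets both TaVAPOE arrays were below both other genotypes for 22.7%, and 23.2% were above both, so the direction taken for a single gene is common. Among the 2275 bright probe sets 30% were below. The median difference of the 5 genes was -0.76 log units, against -0.01 over all 22746 probe sets and 0.05 over the bright ones.

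**Figure D1:**
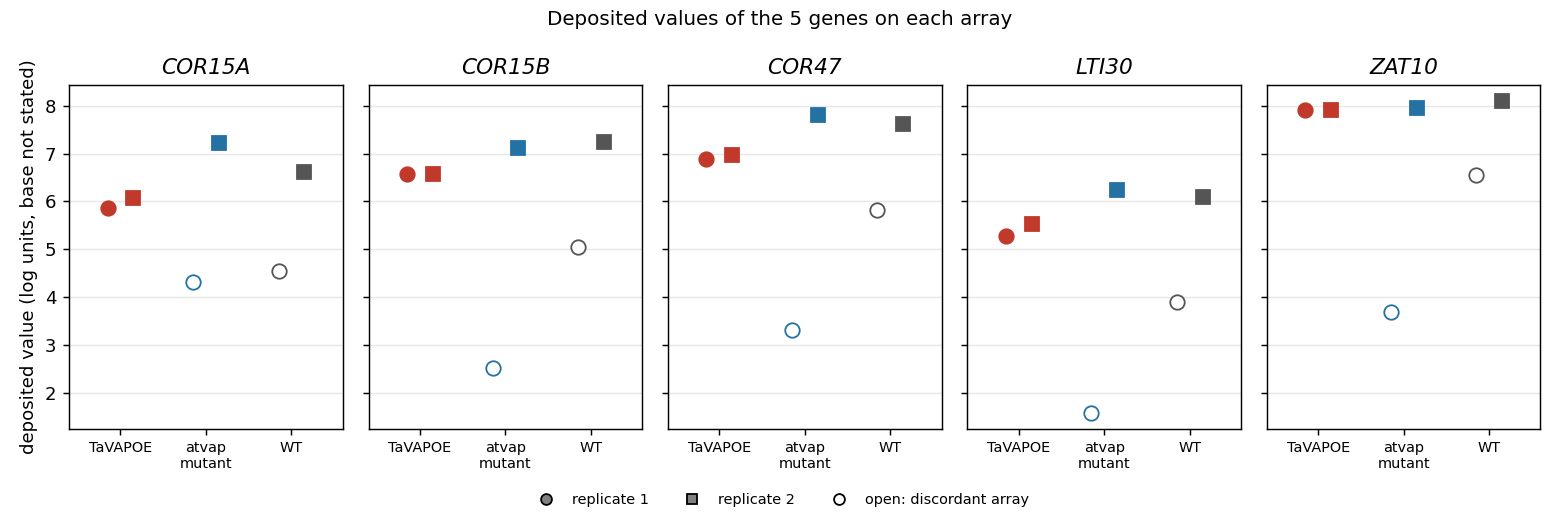
Deposited value (log units, base not stated) of each gene on each array, by genotype; circles are replicate 1, squares replicate 2, and open symbols the 2 discordant arrays. Filled TaVAPOE points sit below the filled mutant and WT points in every panel, by little for ZAT10, while the open points lie lowest of all.

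COR15A and COR15B encode closely related late-embryogenesis-abundant proteins that are imported into the chloroplast stroma and stabilise its membranes during freezing. The RefSeq gene table places them directly next to each other. COR15A read 5.87 and 6.07 log units on the TaVAPOE arrays, 7.22 on mutant replicate 2 and 6.61 on WT replicate 2. The TaVAPOE arrays were 0.20 log units apart, and the gaps to the mutant (-1.25) and to WT (-0.64) were both larger than that. The mutant was 0.61 above WT, which compares 1 array with 1 array. In percentiles COR15A stood at 93.3 and 94.2 in TaVAPOE, 98.1 in the mutant and 96.6 in WT. Put as ranks, 1529 and 1327 probe sets outshone it on the TaVAPOE arrays, 424 on mutant replicate 2 and 772 on WT replicate 2.

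COR15B read 6.57 and 6.56 log units in TaVAPOE, 7.11 in the mutant and 7.23 in WT. Here WT was highest, 0.12 log units above the mutant, which is less than the 0.17 by which these 2 arrays differed in absolute value for the median bright probe set (0.26 for the median of all probe sets). TaVAPOE lay below WT by -0.67 and below the mutant by -0.55 log units, with less than 0.01 between its replicates. Its percentiles were 96.4 and 96.3 in TaVAPOE, 97.9 in the mutant and 98.3 in WT. The 2 adjacent COR15 genes thus shared the place of TaVAPOE and differed in the order of mutant and WT. AT2G42520, the neighbour on the other side of COR15B, read 3.14 and 2.65 in TaVAPOE, 2.50 in the mutant and 2.26 in WT. TaVAPOE was highest there, but its replicates were further apart than the lower of them was from the mutant.

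COR47 (RD17) and LTI30 (XERO2) are dehydrins, hydrophilic proteins whose lysine-rich K-segments bind membranes; COR47 is acidic and LTI30 basic. COR47 read 6.88 and 6.96 log units in TaVAPOE, 7.81 in the mutant and 7.61 in WT. Both gaps, -0.88 to the mutant and -0.69 to WT, were larger than the 0.08 between the TaVAPOE arrays, while the 0.19 between mutant and WT was slightly more than the 0.17 of the median bright probe set and less than the 0.26 of all probe sets. On the TaVAPOE arrays 599 and 569 probe sets were brighter than COR47, against 204 on mutant replicate 2 and 239 on WT replicate 2. AT1G20430, a neighbour of COR47 on the chromosome, was highest in TaVAPOE, at 3.76 and 4.21 log units against 3.596 in the mutant and 3.35 in WT. Its TaVAPOE replicates were further apart than the lower of them was from the mutant.

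LTI30 read 5.27 and 5.52 log units in TaVAPOE, 6.23 in the mutant and 6.09 in WT. The order was that of COR47, with TaVAPOE 0.83 log units under the mutant (-0.83) and 0.70 under WT (-0.70), and 0.25 between its own replicates. The mutant and WT differed by 0.14, within the 0.17 of the median bright probe set. In percentiles LTI30 stood at 89.2 and 90.6 in TaVAPOE, 94.9 in the mutant and 94.8 in WT.

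ZAT10, listed as STZ in RefSeq, encodes a zinc-finger repressor with an EAR motif that acts in salt, drought, cold and light stress. It read 7.898 and 7.899 log units in TaVAPOE, 7.96 in the mutant and 8.11 in WT. TaVAPOE was lowest here too, but only by -0.060 against the mutant and -0.21 against WT. The gap to the mutant is smaller than the 0.12 by which the TaVAPOE arrays differed for the median bright probe set. ZAT10 was among the brightest probe sets of these unstressed seedlings, with 187 and 196 brighter in TaVAPOE, 165 in the mutant and 128 in WT.

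**Figure D2:**
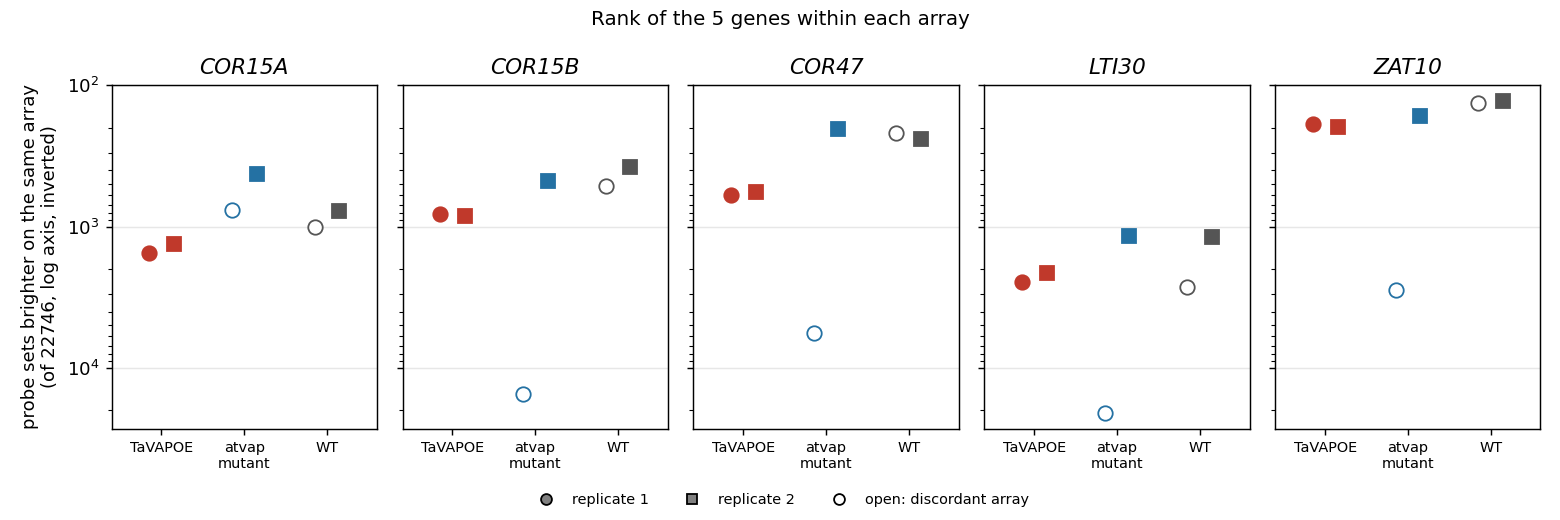
Number of probe sets brighter than each gene on the same array, of 22746, on an inverted log axis, so that brighter genes stand higher; symbols as before. On this scale WT replicate 1 lies close to WT replicate 2 for all genes but LTI30, and mutant replicate 1 stands far down for every gene but COR15A.

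Read as an order of genotypes, COR15A, COR47 and LTI30 ran mutant, WT, TaVAPOE from high to low, and COR15B and ZAT10 ran WT, mutant, TaVAPOE. The order mutant, WT, both TaVAPOE arrays was shown by 11% of all probe sets. Of the neighbours in these orders, mutant and WT differed by more than the 0.17 of the median bright probe set for COR15A and, barely, for COR47, and no spread can be had for either genotype from a single array. A TaVAPOE mean at least 0.5 log units below the mean of mutant and WT was found for 4 of the 5 genes, against 10.2% of all probe sets and 10.9% of the bright ones. The 0.5 was not a planned setting, and it falls in the gap between ZAT10 (-0.13) and COR15B (-0.61). The count of 4 therefore depends on where it was put. All 4 genes were read on the same arrays and are not independent cases. Genes and arrays were also chosen with earlier results of these data known, so the shares given here are descriptive only. Lower differences than that of COR15A (-0.94) were read for 2.14% of all probe sets, than that of COR47 (-0.79) for 3.66%, LTI30 (-0.76) 4.01% and COR15B (-0.61) 6.92%. For ZAT10 (-0.13) the share was 35.8%, well inside the bulk of the array.

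**Figure D3:**
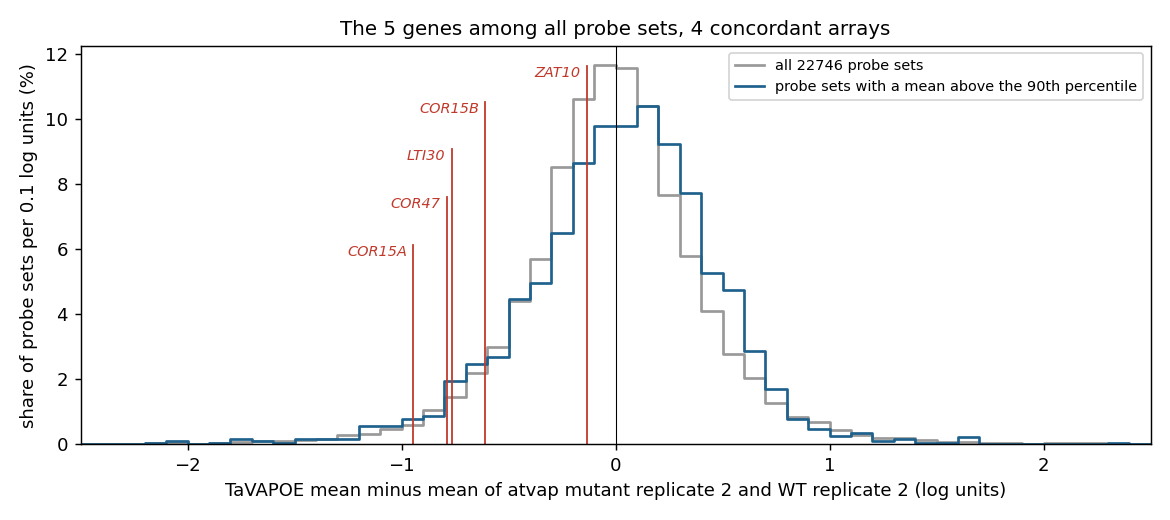
Share of probe sets per 0.1 log units of difference, the TaVAPOE mean minus the mean of mutant replicate 2 and WT replicate 2, for all 22746 probe sets (grey) and the 2275 with a mean above the 90th percentile (blue). Red lines mark the 5 genes: COR15A, COR47, LTI30 and COR15B lie on the lower flank, between -0.94 and -0.61, and ZAT10 near the centre at -0.13.

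Tested over the 4 concordant arrays, none of the 5 genes passed in limma with Benjamini-Hochberg adjustment over all probe sets. The TaVAPOE pair gives this fit its only residual degree of freedom, and the fit assumes that the single mutant and WT arrays vary as that pair does. Between TaVAPOE and WT, 9 probe sets were called (0.0396%) and 0 of the 5 genes were; their adjusted p ran from 0.159 for COR47 to 0.586 for ZAT10, and 4 of 5 had an unadjusted p under 0.05, as did 4794 of all probe sets (21.1%). The 95% interval of the difference was -1.20 to -0.18 log units for COR47, -1.17 to -0.16 for COR15B, -1.27 to -0.12 for LTI30, -1.19 to -0.09 for COR15A and -0.71 to 0.30 for ZAT10. If the base of the scale is 2, the differences of COR15A, COR15B, COR47 and LTI30 are 1.56-, 1.59-, 1.62- and 1.62-fold.

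Between TaVAPOE and the mutant, 15 probe sets were called over 4 arrays (0.0659%) and again 0 of the 5 genes. COR15A came nearest, at -1.25 ± 0.21 log units (limma standard error, adjusted p = 0.143), followed by COR47 at -0.88 ± 0.19 (adjusted p = 0.196), LTI30 at -0.83 ± 0.21 (adjusted p = 0.235) and COR15B at -0.55 ± 0.19 (adjusted p = 0.308). The intervals of those 4 genes excluded 0 before adjustment, as did those of 3368 of all probe sets (14.8%). ZAT10 differed by -0.060 ± 0.19, with an interval from -0.56 to 0.44. This comparison shares its TaVAPOE arrays with the one against WT. Between mutant and WT, 0% of probe sets were called in limma over 4 arrays; unadjusted p-values below 0.05 numbered 2951, among them 0 of the 5 genes. COR15A had the largest difference of the 5, 0.61 ± 0.24 log units with an interval from -0.03 to 1.25 (adjusted p = 0.398).

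With all 6 arrays the order of the mean values was different. COR15A read 4.32 log units on mutant replicate 1 and 4.55 on WT replicate 1, COR15B 2.52 and 5.05, COR47 3.33 and 5.82, LTI30 1.59 and 3.89, and ZAT10 3.69 and 6.55 on the same arrays. Each of these lies below every concordant array for that gene. Mutant replicate 1 was the lowest of the 6 arrays for all 5 genes, as it was for 25.9% of all probe sets. The share among the bright probe sets, which as a whole read lower on that array, was not counted. Mutant replicate 1 minus mutant replicate 2 was -2.90 log units for COR15A and -4.27 to -4.64 for the other 4, next to the median of -3.29 for bright probe sets. WT replicate 1 minus WT replicate 2 was -1.56 to -2.20 over the 5 genes, next to -2.12.

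Averaged over both replicates, TaVAPOE then had the highest mean value for all 5 genes and the mutant the lowest for all but COR15A. COR15A averaged 5.97 ± 0.14 log units in TaVAPOE, 5.77 ± 2.05 in the mutant and 5.58 ± 1.45 in WT (SD, n = 2 each). COR47 averaged 6.92 ± 0.05 in TaVAPOE, 5.57 ± 3.17 in the mutant and 6.72 ± 1.27 in WT. The same held for COR15B, at 6.56, 4.82 and 6.14, for LTI30, at 5.40, 3.91 and 4.99, and for ZAT10, at 7.90, 5.82 and 7.33 in TaVAPOE, mutant and WT. Between neighbours in these orders the differences were smaller than the larger of the SDs of the genotypes compared, and the TaVAPOE arrays lay between the WT arrays for every gene. An exact permutation test of 2 against 2 arrays cannot give a two-sided p below 0.333, so none was used.

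By mean percentile, TaVAPOE stayed below WT for all 5 genes when the discordant arrays were added. The mutant became the lowest for COR15B, COR47, LTI30 and ZAT10, which ran WT, TaVAPOE, mutant over 6 arrays. COR15A kept the order mutant, WT, TaVAPOE. On WT replicate 1 the 5 genes still stood at percentiles 95.6 (COR15A), 97.7 (COR15B), 99.0 (COR47), 88.3 (LTI30) and 99.4 (ZAT10), within 1.1 points of WT replicate 2 for all but LTI30. Both TaVAPOE percentiles were below both WT percentiles for 4 of the 5 genes, against 17.1% of all probe sets and 14.4% of the bright ones. LTI30 was the exception, since its TaVAPOE percentiles of 89.2 and 90.6 fell between 88.3 and 94.8 in WT. COR15A was also below both mutant arrays, at 93.3 and 94.2 in TaVAPOE against 96.7 and 98.1 in the mutant and 95.6 and 96.6 in WT. All 4 of the other arrays ranked it above both TaVAPOE arrays, a pattern shown by 5.31% of all probe sets and 1.05% of the bright ones. The pattern needs a high rank on mutant replicate 1, where bright probe sets as a whole read lower. COR15B, COR47, LTI30 and ZAT10 did not show it. Mutant replicate 1 kept COR15A at percentile 96.7 while it placed ZAT10 at 87.7, COR47 at 74.9, COR15B at 33.0 and LTI30 at 8.18.

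In limma over 6 arrays, without array weights, no probe set passed in any of the 3 comparisons (0%), and none of the 5 genes did. Unadjusted p-values under 0.05 were found for 486 probe sets between TaVAPOE and WT, 297 between TaVAPOE and the mutant and 218 between mutant and WT, with 0 of the 5 genes among them in each. TaVAPOE minus WT was 0.39 ± 1.13 log units for COR15A and 0.21 ± 1.48 for COR47 (limma adjusted p = 0.949 and 0.985). The intervals were wide, from -3.43 to 3.84 log units for COR47, and so hold the 4-array difference as well as its opposite. Median differences of the 5 genes were 0.40 between TaVAPOE and WT, 1.49 between TaVAPOE and the mutant, and -1.15 between mutant and WT, against 0.03, -0.05 and 0.00 over all probe sets and 1.12, 1.62 and -0.50 over the 2275 bright ones. In each comparison the median of the 5 genes was below that of the bright probe sets. These signs turn for TaVAPOE minus WT with quantile normalisation of the 6 arrays, where all 5 differences were negative (median -0.45), and without WT replicate 1.

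**Figure D4:**
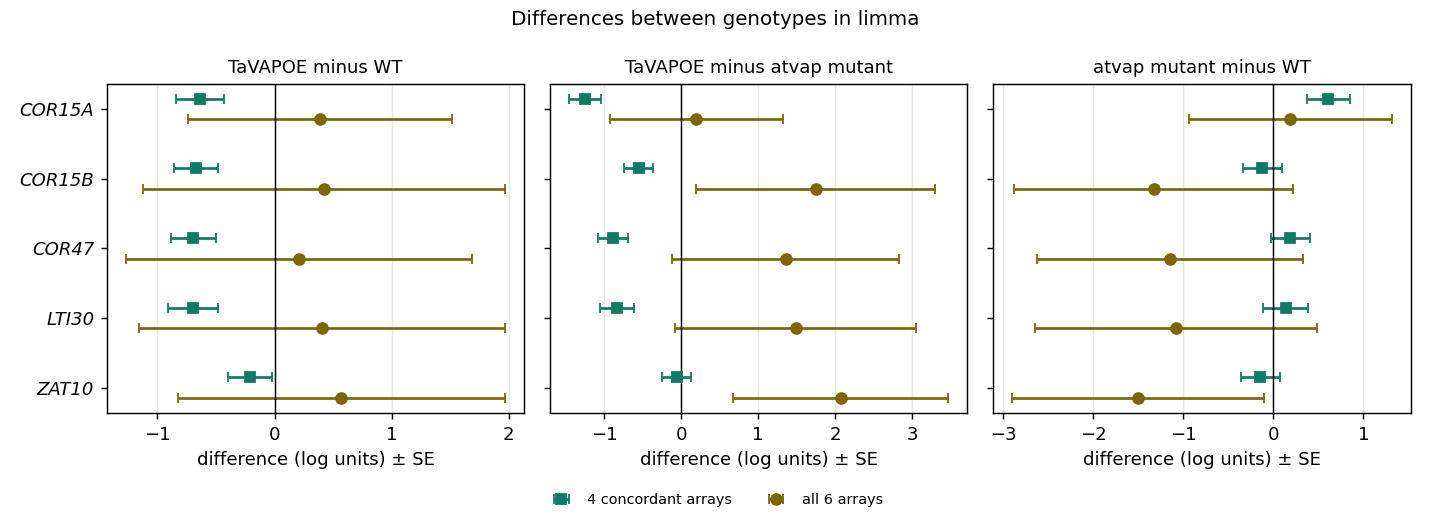
Differences between genotypes in deposited log units with limma standard errors, from the 4 concordant arrays (green squares) and from all 6 (brown circles). TaVAPOE minus WT and TaVAPOE minus atvap mutant are negative for all 5 genes over 4 arrays and positive over 6, and no difference passed the adjusted threshold.

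Few other genes of the cold pathway could be set beside these. COR27, a gene controlled by both cold and the clock, read 6.02 and 6.02 log units in TaVAPOE, 6.07 in the mutant and 6.20 in WT on the 4 concordant arrays. Its TaVAPOE differences over 4 arrays were -0.18 ± 0.19 log units from WT and -0.05 ± 0.19 from the mutant (limma standard error). Each is smaller in size than its standard error and than the differences of the COR15 genes, so no change is shown for COR27. COR28, its relative, went the other way, at 3.25 and 3.49 in TaVAPOE, 2.85 in the mutant and 2.90 in WT. Those 2 were the genes with a probe set named here among 23 listed targets of cold, and 0 of 2 passed in either direction in any comparison over 6 or 4 arrays. Of 14 listed CBF regulators 1 had a probe set named here, SIZ1, a SUMO ligase that acts on the cold regulator ICE1, and its 2 probe sets disagreed. The other 13 were not analysed here, and nothing is shown about them. The brighter read 4.14 and 3.66 in TaVAPOE, 4.14 in the mutant and 3.80 in WT, and the dimmer at most 2.24 on any array.

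Among 8 listed dehydrins besides COR47 and LTI30, 4 had a probe set named here and none passed in any comparison. HIRD11, a histidine-rich dehydrin, was bright and nearly level, at 8.01 and 8.07 log units in TaVAPOE, 8.10 in the mutant and 7.88 in WT. Its TaVAPOE arrays lay between mutant and WT, unlike those of COR47 and LTI30, and its difference from WT over 4 arrays was 0.16 ± 0.19 log units (limma adjusted p = 0.692). The dehydrin genes LEA (AT2G21490), AT4G38410 and AT4G39130 read at most 1.97 log units on any of the 4 arrays. Of 14 listed relatives of ZAT10 in the C1-2i zinc-finger class, 4 had a probe set named here and none passed. On the 4 concordant arrays AT3G60580 (named ZAT9 in the list) read 1.66 and 1.90 in TaVAPOE, 2.33 in the mutant and 2.98 in WT. AT3G53600 read 1.36 and 1.27, 1.98 and 2.28 in the same order. Both had the TaVAPOE arrays lowest of these 4, with differences from WT of -1.20 ± 0.21 and -0.97 ± 0.19 log units. AT3G53600 was dim, at percentile 35.7 or lower on every array. AT3G60580 stood at percentiles 24.8 and 30.9 in TaVAPOE, 39.0 on mutant replicate 2 and 58.3 on WT replicate 2. On the discordant arrays it stood at 97.6 (mutant replicate 1) and 52.2 (WT replicate 1). The other 2, AT2G28710 and AT2G28200, differed from WT by 0.14 and 0.10. GI, the single gene with a probe set named here of 10 listed for the circadian clock, read 4.09 and 4.12 in TaVAPOE, 3.61 in the mutant and 3.84 in WT. The labels give no hour of harvest. None of the 14 listed rapid stress and touch genes was analysed here.

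Likeness of profile was measured as the root mean square (RMS) difference of mean-centred values, smaller being more alike. Over 6 arrays, COR15B, COR47 and LTI30 were near each other, at 0.14 between COR15B and LTI30, 0.16 between COR47 and LTI30, and 0.20 between COR15B and COR47. Only 7 of all other probe sets were nearer to COR15B than LTI30 was. COR15A stood off from the other 4, at 0.75 to 0.94, since it fell less on mutant replicate 1. Over the 4 concordant arrays COR15A came to within 0.17 of COR47 and 0.19 of LTI30, with 175 and 241 probe sets nearer to COR15A. COR47 and LTI30 were 0.07 apart, with 52 probe sets nearer to COR47. COR15B was 0.14 from COR47 and 0.15 from LTI30, with 832 and 943 probe sets nearer to COR15B. The adjacent COR15A and COR15B were 0.32 apart, with 1301 probe sets nearer to COR15A and 8570 nearer to COR15B. ZAT10 was 0.24 to 0.49 from the other genes there, with 3881 probe sets or more nearer to each of them than ZAT10 was.

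Among genes outside the 5, those most like COR15A over 6 arrays were AT5G52050 (RMS 0.10), AT4G35985 (0.12) and AT1G02660 (0.15). AT5G52050 read 6.35 and 6.56 log units in TaVAPOE, 4.83 and 7.45 in the mutant and 5.06 and 7.15 in WT, so that it shared the milder fall on mutant replicate 1. COR15B was most like AT3G19030, AT4G39670 and AT2G25735, at 0.14, 0.14 and 0.15, and COR47 most like AT4G20830 (0.09), AT4G37240 (0.11) and AT3G51450 (0.14). LTI30 was nearest to AT1G71950 (0.08), then AT2G25735 and AT3G51450, both at 0.12, which also stand in the lists of COR15B and COR47. ZAT10 was most like DI19, a zinc-finger gene named for its induction by drought (0.09), AT4G33985 (0.12) and EIN3, the transcription factor of ethylene signalling (0.15). DI19 read 7.64 and 7.75 in TaVAPOE, 3.49 and 7.59 in the mutant and 6.29 and 7.68 in WT. These 6-array profiles are dominated by the fall on the discordant arrays.

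Over the 4 concordant arrays alone the nearest genes were others. COR15A was most like AT1G11960 and APS3, an ATP sulfurylase, both at an RMS of 0.04, and AT1G29140 (0.06), with APS3 at 4.12 and 4.25 log units in TaVAPOE, 5.42 in the mutant and 4.89 in WT. COR47 was most like AT3G55840 and AT5G61590, both at 0.01, and AT4G30490 (0.03). LTI30 was most like AT4G18180 (0.02), AT4G25940 (0.03) and, nearest of all, AT1G22890 (0.02), which read 5.28 and 5.54 in TaVAPOE, 6.24 in the mutant and 6.14 in WT. The genes nearest to ZAT10 were AT4G19460 and AT5G64950, followed by COR27, all at 0.01. AT4G19460 and AT5G64950 were dim, at 1.24 to 1.45 and 2.76 to 2.99 log units on these arrays. So were AT1G29140, listed for COR15A, at 0.92 to 2.295, and AT4G18180, listed for LTI30, at 1.54 to 2.54. The genes nearest to COR15B, AT3G26800 (0.01), AT5G26060 (0.02) and the plastid gene rps16 (0.02), were dim as well, at 1.70 to 2.88.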

How the data were processed

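Affymetrix arrays of biotin-labelled cRNA from 6 seedling samples were analysed. Values were used as the authors deposited them, a log-scale score per probe set; log base, summarisation and normalisation are not given in the sources used. Agilent Feature Extraction is the tool named by the submitters' processing notes, without a version. Of 22810 probe sets 64 controls were left out. Gene names come from matching the Entrez identifiers of the platform annotation to RefSeq (TAIR10.1): 13513 probe sets have 1 gene, of which 13436 matched, 503 have several and 8730 are unnamed here.

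The 3 contrasts were taken from a single limma fit (3.58.1, R 4.3.3) over 6 arrays, with a mean per genotype. Benjamini-Hochberg adjustment at 0.05 was over 22746 probe sets. The fit was tested on simulated data in which every array had the spread of the TaVAPOE pair. Those data held no discordant array, so they do not show how the fit behaves with the 2 found here. Alternatives were the 4 concordant arrays, quantile normalisation, a filter at the 40th percentile, a floor at the 20th, percentile ranks, the replicate block, 2 groups alone, array weights and leaving out each array. Percentiles are ranks over all non-control probe sets. Precision is limited by the number of arrays. The genes, the 4 arrays and the gene lists were chosen with earlier results of these data known. Named were the 5 genes, every gene of the lists with a probe set named here, and for each of the 5 the 3 genes nearest in profile; adjacent genes were added afterwards. Planned searches of promoter and protein letters are not reported here.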

Additional observations from a re-analysis of the deposited data

How the results depend on the processing

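None of the 5 genes passed in any comparison under any of the alternatives run. Probe sets called numbered 0 in each comparison in the unweighted fit over 6 arrays. The 4 concordant arrays gave 9 for TaVAPOE against WT and 15 for TaVAPOE against the mutant, and array quality weights gave 3 for TaVAPOE against WT. Leaving out each array in turn gave 0 to 0 in all 3 comparisons. The replicate number as a block gave 0 called in each comparison and left the differences as they were; the numbers share no stated source, and deviations of same-numbered arrays correlated at 0.58 between mutant and WT, 0.09 between TaVAPOE and the mutant and 0.01 between TaVAPOE and WT.

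Directions turned often. For TaVAPOE minus WT the differences of COR15A, COR15B, COR47, LTI30 and ZAT10 were -0.64, -0.67, -0.69, -0.70 and -0.21 log units over 4 arrays, -0.45, -0.54, -0.74, -0.23 and -0.31 with quantile normalisation, and -2.37, -1.66, -1.56, -1.64 and -0.27 percentile points on the rank scale. Leaving out single arrays, they ran from -0.64 to 1.41, -0.67 to 1.51, -0.69 to 1.11, -0.70 to 1.50 and -0.21 to 1.35, the low end being without WT replicate 1. For TaVAPOE minus mutant they were -1.25, -0.55, -0.88, -0.83 and -0.060 over 4 arrays, and COR15A was also negative with quantile normalisation (-0.84) and on the rank scale (-3.68 points). COR15B, COR47, LTI30 and ZAT10 stayed positive there, at 1.61, 0.89, 1.54 and 1.16 log units and at 30.9, 10.4, 38.4 and 5.66 points. Leaving out single arrays gave -1.25 to 1.65, -0.55 to 4.04, -0.88 to 3.60, -0.83 to 3.81 and -0.060 to 4.21, the low end without mutant replicate 1. For mutant minus WT, COR47 (0.19) and LTI30 (0.14) turned positive over 4 arrays, and leaving out single arrays gave -1.26 to 1.64, -3.62 to 0.97, -3.39 to 1.09, -3.40 to 1.24 and -3.64 to 0.63. The cause of these turns was not tested beyond naming the array left out. With no detection calls used here, the 20th percentile of all values (1.66) stood in for background, and LTI30 on mutant replicate 1 read below it.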
